A study of Mus musculus with 23 samples.

Results

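The comparison described here set testes of males from a cross within Mus musculus musculus, PWDxPWK, against testes of males from crosses within Mus musculus domesticus stock, B6xBALB/C and its reciprocal BALB/CxB6. PWD and PWK are wild-derived inbred strains of the musculus subspecies, and B6 and BALB/C are classical laboratory strains of mainly domesticus origin. The members were the 11 arrays of these F1 genotypes among the 23 arrays of the series, chosen by genotype label alone: 2 of PWDxPWK, 6 of B6xBALB/C and 3 of BALB/CxB6. The difference was the PWDxPWK mean minus the mean of the group means of both domesticus crosses. The other arrays were of inbred PWD (3), inbred B6 (3) and the inter-subspecific hybrids PWDxB6 (3) and B6xPWD (3). Each array held RNA of cells of the spermatogenic compartment, isolated from a pool of 4 testes of mice aged 14.5 days with no treatment named, on the Affymetrix Mouse Gene 1.0 ST array. The authors left out another PWDxPWK array that stood apart in their quality checks, so that group has 2 arrays. Whether the pools of a genotype drew on different litters is not stated, and the p-values therefore reflect only how far these arrays vary, which may be partly technical. Crosses are read in the usual notation, female first, by which PWDxPWK males carry the X of PWD and the Y of PWK, B6xBALB/C males the X of B6, and BALB/CxB6 males the X of BALB/C. All 3 genotypes are non-inbred and intra-subspecific, and serve the series as fertile controls for the inter-subspecific hybrids.

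Musculus and domesticus are house mouse subspecies whose hybrid males can be sterile, which makes the baseline divergence of their testis transcriptomes a reference for any hybrid effect. At this age the first wave of spermatogenesis has carried the leading germ cells into meiotic prophase, while spermatogonia and Sertoli cells are already present and spermatids are not. In a bulk preparation, fewer cells of a type and less RNA per cell cannot be told apart. The array probes were designed on a reference genome of B6, so a lower signal of a musculus transcript and a mismatch of its sequence to the probes cannot be told apart.

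Germ cell markers were measured in all groups, with Ddx4 at 10.04 to 10.28 log2 in PWDxPWK and 10.08 to 11.20 in the domesticus F1s, and Dazl at 11.16 to 11.40 against 11.21 to 11.73. The Sertoli cell factor Sox9 was also measured, at 9.03 to 9.27 against 8.87 to 9.62, so somatic RNA was present in all groups. The spermatid gene Tnp1 and the macrophage gene Adgre1 were below the dim filter, which left out the 25% of genes with the lowest mean. Array medians lay between 6.14 and 6.25. The B6xBALB/C arrays stood apart from one another in the mean log2 level of 31 pachytene spermatocyte genes relative to all 23 arrays. It was 0.67 to 0.91 in replicates 1, 2, 3 and 5, 0.23 in replicate 4 and -0.69 in replicate 6, against -0.34 to -0.19 in BALB/CxB6 and -0.22 and -0.20 in PWDxPWK. Counts of germ cell lists that moved with the choice of these arrays are given beside the main counts.

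Of 14745 genes tested, 1620 (11.0%) differed between PWDxPWK and the domesticus F1s at a Benjamini-Hochberg adjusted p under 0.05 in a linear model over all arrays (limma). Of these, 860 (5.83%) were higher and 760 (5.15%) lower in PWDxPWK. The median size of a called difference was 0.52 log2 units, or 1.44-fold, and the median difference over all genes was 0.02. Differences over 1 log2 unit were found for 152 genes, 64 higher and 88 lower, and differences over 2 units for 14 genes. Both PWDxPWK arrays lay outside the range of all 9 domesticus F1 arrays for 2594 genes (17.6%), above it for 1508 (10.2%) and below it for 1086 (7.37%); 1475 genes were both outside and called. All 1620 calls had the same sign against each direction of the domesticus cross taken alone, which averaging the directions makes likely beforehand. Of these calls, 891 also passed against each direction alone, with the same sign. With a single PWDxPWK array the count was 777 without replicate 1 and 775 without replicate 2.

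A related subspecies contrast was available on separate arrays of the same fit, inbred PWD against inbred B6. It holds no PWK or BALB/C alleles, and its mice are inbred. It called 2719 genes (18.4%), 1533 higher (10.4%) and 1186 lower (8.04%) in PWD. Of the F1 calls, 1130 were also called there in the same direction, 609 higher and 521 lower, which is 69.75% of the F1 calls and 41.56% of the inbred calls. The signs matched for 97.4% of the F1 calls and for 74.7% of all genes tested. Among the 152 differences over 1 log2 unit, 145 were called in the same direction in the inbred pair. The F1 and inbred differences correlated across all genes at Pearson r = 0.79, a description in which genes are not independent and both axes share the probes.

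**Figure D1:**
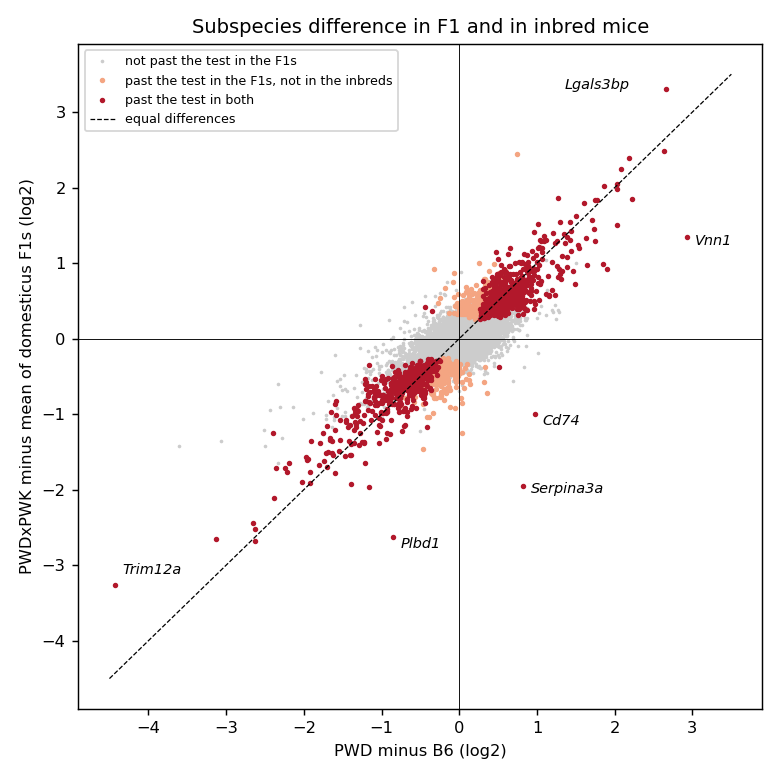
Log2 difference of each of 14745 genes between PWDxPWK and the mean of the domesticus F1s (vertical) against the difference between inbred PWD and B6 (horizontal). Dark points are past the test in both comparisons, light points in the F1s and not in the inbreds, grey points not in the F1s, and the dashed line marks equal differences. Most called genes lie near the line, while Serpina3a, Cd74 and Plbd1 lie well below it.

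Contrasts within a subspecies called fewer genes in the main fit. They compare closely related genotypes, so their counts do not measure divergence within a subspecies. The reciprocal crosses have the same parent strains, and PWDxPWK has a PWD mother. B6xBALB/C differed from BALB/CxB6 at 65 genes (0.441%; 53 higher, 0.359%, and 12 lower, 0.0814%), a count that depended on the B6xBALB/C arrays: it was 1618 when arrays were weighted by quality and 0 with replicates 4 to 6 alone, where 1355 genes had an unadjusted p under 0.05 in limma. PWDxPWK differed from inbred PWD, which carries the same X, at 1 gene (0.00678%). That gene was Aldh7a1, an aldehyde dehydrogenase of lysine breakdown, and 419 genes had an unadjusted p under 0.05.

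The largest rises in PWDxPWK included secreted, channel and antiviral proteins. They were chosen among calls with both PWDxPWK arrays outside the domesticus F1 range, so their separation was part of the choice. Lgals3bp, a secreted glycoprotein that binds galectins, lay at 9.54 and 9.37 log2 in PWDxPWK, at 5.91, 6.24 and 6.45 as the lowest, median and highest of B6xBALB/C, and at 6.12, 6.05 and 6.11 in BALB/CxB6. Both PWDxPWK arrays stood far above all domesticus F1 arrays, by 3.31 ± 0.12 log2 units (SE; 9.9-fold, adjusted p = 1.3e-14). Kcnc2, a voltage-gated potassium channel subunit, lay at 7.98 and 8.28, against 5.32, 5.52 and 6.01 in B6xBALB/C and 5.67, 5.73 and 5.75 in BALB/CxB6. Here too the groups were separate, by 2.48 ± 0.14 (5.58-fold, adjusted p = 5.28e-11). Gask1a, a kinase-like protein of the Golgi, lay at 7.73 and 7.84, against 5.42, 5.55 and 5.64 in B6xBALB/C and 5.33, 5.41 and 5.04 in BALB/CxB6. It rose by 2.39 ± 0.12 without overlap (5.24-fold, adjusted p = 2.5e-12). The inbred differences of these genes were 2.65, 2.63 and 2.19.

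S100b, a calcium-binding protein, lay at 7.11 and 7.77 in PWDxPWK, against 5.04, 5.42 and 5.53 in B6xBALB/C and 5.26, 5.60 and 5.73 in BALB/CxB6. It was 3.96-fold higher (1.99 ± 0.17, adjusted p = 3.85e-08), although its PWDxPWK arrays differed more from each other than the BALB/CxB6 arrays did. Catspere2, a gene of the sperm calcium channel complex, lay at 8.71 and 8.40, with a wide range in B6xBALB/C of 5.29, 7.24 and 7.79, and at 6.09, 5.99 and 6.07 in BALB/CxB6. Its rise was 2.05 ± 0.35 (adjusted p = 0.000355), and the B6xBALB/C arrays spread over more than that. Usp17ld, of a multi-copy deubiquitinase family whose probes can read several copies, lay at 9.12 and 7.60, against 5.56, 6.39 and 7.02 and, in BALB/CxB6, 5.37, 5.09 and 6.11. The call of Usp17ld (2.44 ± 0.45, adjusted p = 0.000702) rested on PWDxPWK replicate 1, since the adjusted p was 0.093 without it, and its inbred difference was 0.75 (adjusted p = 0.285). The remaining rises of the 12 largest were Mx2 and Rtp4, described with the interferon genes, AU021092 (2.02), the vesicle-release factor Cadps (1.85), the atypical MAP kinase Mapk4 (1.83) and Map3k7cl (1.79). All 4 kept their call in every alternative tried and were called in the inbred pair.

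The largest falls, chosen by the same rule, included enzymes, transporters and adhesion proteins. Trim12a, a member of the Trim5 family of retroviral restriction factors, lay at 3.99 and 4.18 in PWDxPWK, against 6.98, 7.21 and 7.53 in B6xBALB/C and 7.60, 7.23 and 7.53 in BALB/CxB6. It was 9.56-fold lower (-3.26 ± 0.18, adjusted p = 1.83e-11), with both PWDxPWK arrays far below the others. Because the Trim5 family differs between strains in its gene copies, reads of one copy by the probes of another cannot be separated here. Bbox1, the last enzyme of carnitine synthesis, lay at 4.88 and 5.23, against 7.27, 7.72 and 8.39 in B6xBALB/C and 7.72, 7.55 and 7.82 in BALB/CxB6. It fell 6.4-fold without overlap (-2.68 ± 0.21, adjusted p = 6.78e-09). Slc16a3, a lactate exporter of glycolytic cells, lay at 6.96 and 6.63, against 8.77, 9.01 and 9.74 and, in BALB/CxB6, 9.59, 9.32 and 9.63. It fell 5.73-fold (-2.52 ± 0.21, adjusted p = 1.61e-08), and all 9 domesticus F1 arrays were higher than either PWDxPWK array.

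Abca6, an ABC transporter, lay at 4.69 and 4.73 in PWDxPWK, against 6.55, 6.82 and 7.07 in B6xBALB/C and 7.13, 6.63 and 6.63 in BALB/CxB6, a clear separation of -2.11 ± 0.18 (adjusted p = 3.85e-08). Rps19, a protein of the small ribosomal subunit, lay at 6.68 and 6.33, against 7.74, 8.03 and 8.70 and, in BALB/CxB6, 8.34, 8.39 and 9.52 (-1.92 ± 0.30, adjusted p = 0.000115). Ribosomal protein genes have many processed copies, so this value is uncertain as to the copy measured. Other falls among the 12 largest were those of the carboxylesterase Ces2g (-1.91), the annexin Anxa3 (-1.90), the neuronal adhesion protein Nrcam (-1.78), the aminopeptidase Rnpep (-1.77), the matrix protein Tgfbi (-1.97), Plbd1 (-2.62) and Serpina3a (-1.95). The last pair differed from the inbred contrast and are described with the F1 and inbred differences. Every one of the 12 largest falls kept its call in all alternatives in which it was tested.

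**Figure D2:**
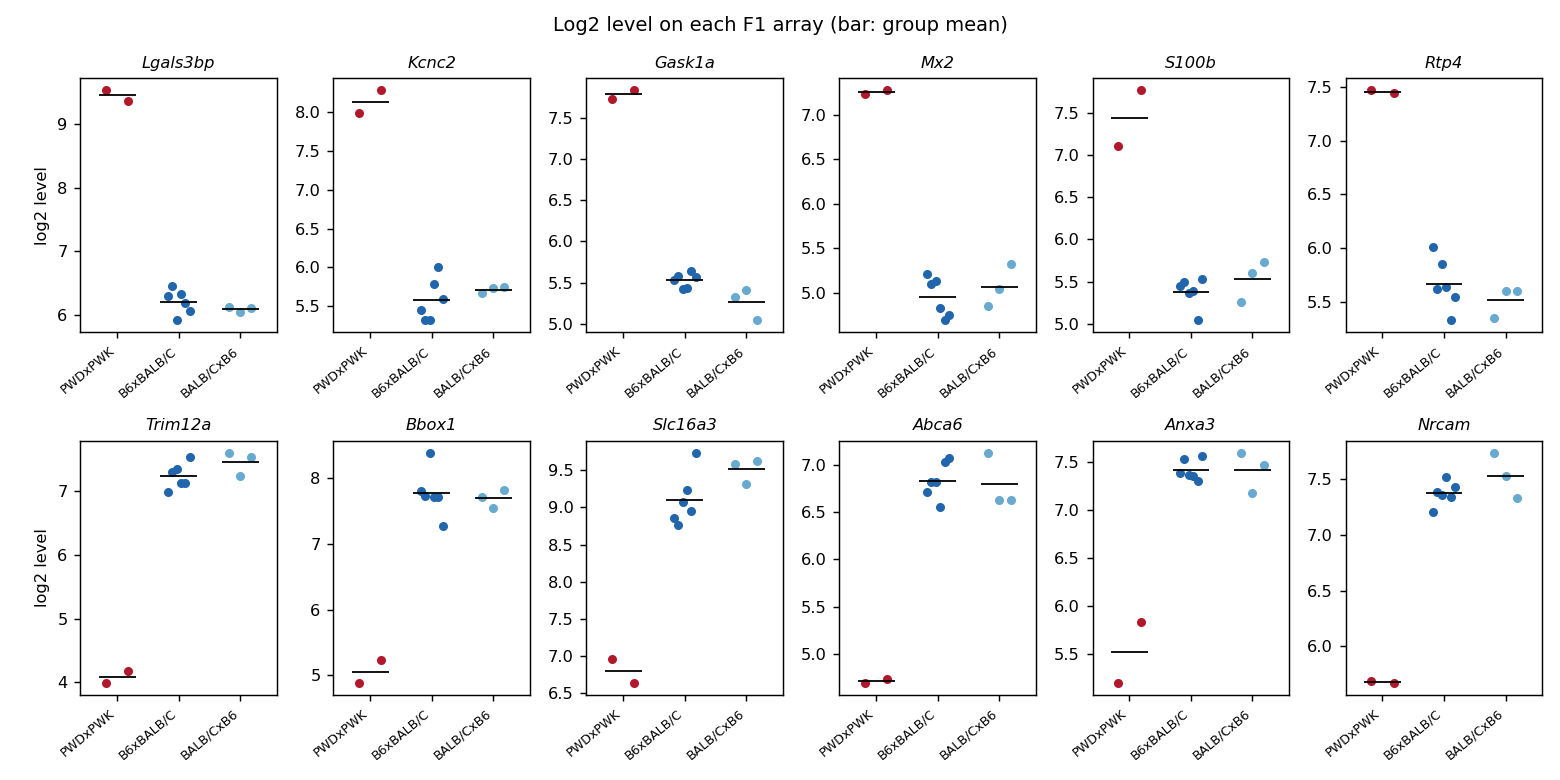
Log2 level on each array for 6 genes higher (top) and 6 genes lower (bottom) in PWDxPWK; points are arrays and bars are group means, with a separate vertical scale in each panel. The genes were chosen among calls with both PWDxPWK points outside the range of the 9 points of the domesticus crosses, as for Lgals3bp at 9.54 and 9.37.

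Interferon-stimulated genes are the antiviral program that cells switch on when interferon binds its receptor: Stat2 and Irf9 enter the nucleus as part of a complex that binds the interferon-stimulated response element, and sensors, effectors and feedback factors are then transcribed. In the testis this program is known from somatic cells and macrophages more than from germ cells. Of 35 members of the list on the array, 27 were tested, and 18 rose and 1 fell in PWDxPWK, against 5.83% and 5.15% of all genes. The median difference of the 27 was 0.76, against 0.02 for all genes, and 24 were positive, against 8051 of all 14745 genes. Of the 27, 19 had both PWDxPWK arrays outside the range of the domesticus F1s, against 17.6% of all genes. The count that rose was 14 and 15 without PWDxPWK replicates 1 and 2, and 9 of the 13 members left when the lower 50% of genes was removed. In the inbred pair 15 rose, against 10.4% of all genes, and 13 of these also rose in the F1s.

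The effectors Mx2 and Rtp4 had the largest differences. Mx2, a dynamin-like GTPase that blocks viruses, lay at 7.24 and 7.28 in PWDxPWK, against 4.69, 4.96 and 5.21 in B6xBALB/C and 4.85, 5.04 and 5.32 in BALB/CxB6. It was 4.75-fold higher without overlap (2.25 ± 0.20, adjusted p = 5.43e-08). Rtp4, an interferon-induced chaperone of receptors, lay at 7.47 and 7.44, against 5.33, 5.63 and 6.01 and, in BALB/CxB6, 5.35, 5.60 and 5.60 (1.86 ± 0.14, adjusted p = 4.67e-09). Bst2, which tethers budding virions, lay at 8.37 and 7.88, against 6.81, 6.94 and 7.0 and, in BALB/CxB6, 6.86, 6.95 and 7.24 (1.15 ± 0.14, adjusted p = 4.84e-06). All 3 effectors had both PWDxPWK arrays above every domesticus F1 array. Oas1a, a synthase of the 2-5A messenger that activates RNase L, rose by 1.12 ± 0.19 (adjusted p = 0.000342), and Eif2ak2, the double-stranded RNA kinase, by 0.86 ± 0.16 (adjusted p = 0.000892). Xaf1 (1.31), Irgm1 (0.91), Parp14 (0.86), Parp9 (0.76) and Ifi35 (0.48) also rose, as did Oasl2, described with the F1 and inbred differences. The call of Eif2ak2 was lost without PWDxPWK replicate 2, and that of Ifi35 without replicate 1 and against BALB/CxB6 alone.

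The cytosolic RNA sensor Ddx58, also named Rigi, lay at 7.79 and 8.23, against 6.44, 6.63 and 6.70 in B6xBALB/C and 6.81, 6.63 and 6.70 in BALB/CxB6 (1.36 ± 0.11, adjusted p = 1.96e-08). Its PWDxPWK arrays stood above all others, as did those of the related helicase Ddx60, at 7.34 and 7.52 against a highest domesticus F1 value of 6.40 (1.42 ± 0.17, adjusted p = 3.77e-06). A smaller rise was measured for the sensor Ifih1 (0.47 ± 0.13, adjusted p = 0.0216), whose call was lost when either PWDxPWK array was left out and against BALB/CxB6 alone. Among transcription factors, Irf7, the amplifier of type I interferon, lay at 7.56 and 7.38, against 6.10, 6.32 and 6.41 and, in BALB/CxB6, 6.38, 6.04 and 6.36 (1.2 ± 0.11, adjusted p = 5.85e-08). The DNA-binding partner Irf9 rose by 0.63 ± 0.10 (adjusted p = 8.88e-05) and Stat2 by 0.37 ± 0.11 (adjusted p = 0.0225), the latter not called when either PWDxPWK array was left out. Irf1 was 0.44 ± 0.29 higher and did not pass (adjusted p = 0.377). The feedback inhibitor Usp18, which removes ISG15 from proteins and damps the receptor, rose by 0.79 ± 0.11 (adjusted p = 2.68e-05).

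The member that fell was Ifi27, an interferon-inducible membrane protein, at 7.95 and 7.55 against 8.15 to 8.55 in B6xBALB/C (-0.75 ± 0.17, adjusted p = 0.00383), and it also fell in the inbred pair (-1.0). Its call was lost without PWDxPWK replicate 2. Besides Irf1, the 7 members that did not pass were Rsad2 (0.40), Gbp3 (0.36), Oas2 (0.32), Oas3 (0.16), Oasl1 (0.07), Zbp1 (0.00) and Rnf213 (-0.12). Of the 8 members removed as dim, Ifit1 lay at 5.74 to 5.96 in PWDxPWK against 3.89 to 4.64 in the domesticus F1s, Iigp1 at 5.35 to 5.59 against 3.66 to 4.47, and Oas1b at 5.68 to 6.03 against 4.55 to 5.01. Oas1c was at 4.40 to 4.43 against 4.71 to 5.29, so the dim members were not all on one side. Ifit3 (4.46 to 4.54 against 3.51 to 4.27) and Mx1 (3.71 to 3.72 against 3.19 to 3.59) lay just above the domesticus range, while Ifit2 (4.02 to 4.22 against 3.91 to 4.43) and Dhx58 (4.93 to 5.03 against 4.62 to 5.18) overlapped.

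**Figure D3:**
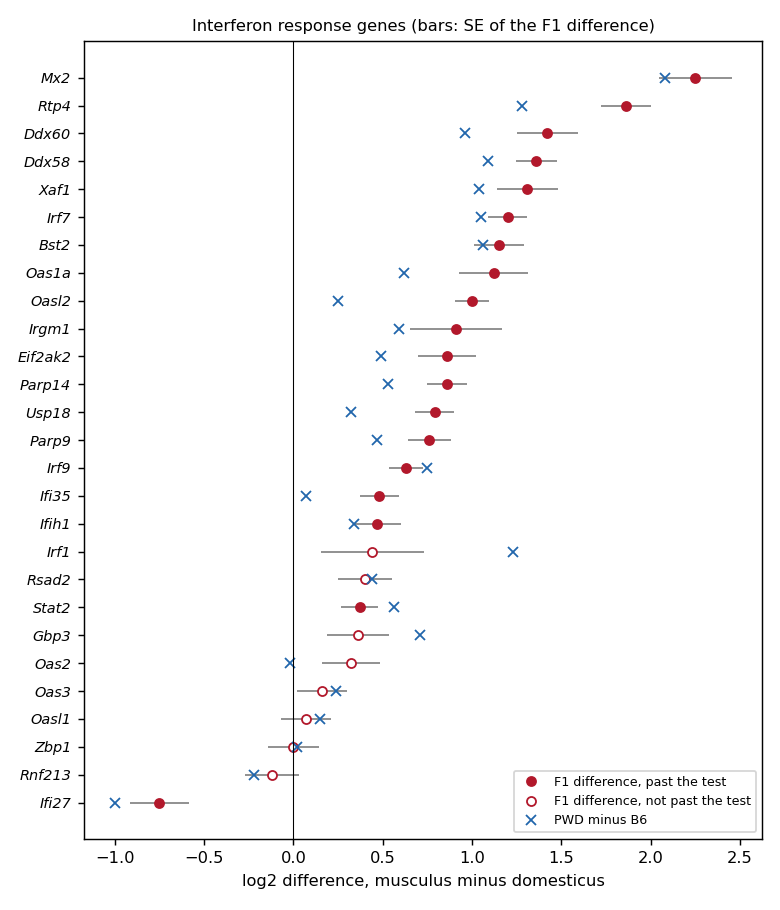
Log2 difference between PWDxPWK and the mean of the domesticus F1s for the 27 interferon response genes tested (circles with the SE as bars; filled circles are past the test) beside the difference between inbred PWD and B6 (crosses). Of the 27 genes 18 are filled on the right, from Stat2 at 0.37 to Mx2 at 2.25, and Ifi27 is filled on the left at -0.75.

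The promoters of the members show where the letters of the response element occur. Its core, the letters GAAA, any 2 bases and GAAA again, was searched on both strands (TTTC, any 2 bases, TTTC on the other) in the 250 bases upstream of the start in RefSeq promoter windows of GRCm38.p6, which is a B6 sequence; overlapping matches were counted separately. Windows were matched by Entrez gene ID for 19 of the 27 members. Of those that rose, 5 of 13 (38.5%) held the core, as did 3 of the other 6 (50%), against 2.73% of the 11641 tested genes with a window and 2.98% of all 32851 windows. The share among all genes called higher was 3.70% and among those called lower 4.53%. A match is only a description of the reference letters, since the musculus sequence was not used here. The windows below are those of the 4 members that rose and held 2 cores each, with the cores in capitals, 5′ to 3′ on the strand of the gene.
Ddx60 (chr8:61927837-61928086, plus strand): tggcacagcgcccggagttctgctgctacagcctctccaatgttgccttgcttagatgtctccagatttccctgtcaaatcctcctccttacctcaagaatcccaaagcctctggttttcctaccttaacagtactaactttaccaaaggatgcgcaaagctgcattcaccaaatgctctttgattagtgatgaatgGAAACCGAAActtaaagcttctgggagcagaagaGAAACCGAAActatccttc
Oas1a (chr5:120907526-120907775, minus strand): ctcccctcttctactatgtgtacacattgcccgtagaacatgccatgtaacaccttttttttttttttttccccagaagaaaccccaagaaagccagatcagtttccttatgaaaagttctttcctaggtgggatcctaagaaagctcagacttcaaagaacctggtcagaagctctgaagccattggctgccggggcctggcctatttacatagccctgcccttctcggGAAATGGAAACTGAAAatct
Bst2 (chr8:71537473-71537722, minus strand): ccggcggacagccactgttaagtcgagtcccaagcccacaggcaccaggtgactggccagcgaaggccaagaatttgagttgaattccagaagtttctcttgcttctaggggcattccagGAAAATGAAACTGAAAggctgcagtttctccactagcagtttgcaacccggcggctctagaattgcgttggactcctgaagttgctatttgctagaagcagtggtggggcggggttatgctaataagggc
Irgm1 (chr11:48871421-48871670, minus strand): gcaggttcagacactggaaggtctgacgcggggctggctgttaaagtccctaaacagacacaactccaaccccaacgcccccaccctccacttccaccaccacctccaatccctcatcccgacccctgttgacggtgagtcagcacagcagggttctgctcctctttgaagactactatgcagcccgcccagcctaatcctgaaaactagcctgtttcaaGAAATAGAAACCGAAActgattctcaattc
In Oas1a, Bst2 and Irgm1 the pair of cores overlap by their shared GAAA, and in Ddx60 they are apart, beginning 53 and 19 bases upstream of the start. Of these, Oas1a, Bst2 and Ddx60 rose by more than 1 log2 unit, and Irgm1 by 0.91 ± 0.26 (adjusted p = 0.0239), a call lost when either PWDxPWK array was left out.

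The mean level of the 27 interferon genes, relative to all arrays, was 0.55 and 0.59 in PWDxPWK and 0.31 to 0.51 in inbred PWD. It was -0.25 to -0.08 in the domesticus F1s and -0.15 to -0.10 in inbred B6. Both hybrids, which carry 1 genome of each subspecies, lay with the domesticus groups, at -0.15 to -0.11 in PWDxB6 and -0.13 to -0.05 in B6xPWD. Markers of macrophages did not separate the F1 groups: their mean level over 12 tested members was -0.07 and -0.04 in PWDxPWK and -0.18 to 0.00 in the domesticus F1s. Of these 12, 1 rose (H2-Ab1, 0.47) and 1 fell (Mrc1, -0.71), both lost without PWDxPWK replicate 1, and the defining marker Csf1r was at 5.52 to 5.53 against 5.19 to 5.72. The share of the list called was 16.7%, beside 11.0% of all genes. Of the 7 dim macrophage markers, Aif1 (5.22 to 5.65 against 4.55 to 5.06) and H2-Aa (5.21 to 5.67 against 4.13 to 4.99) lay above the domesticus range and the other 5, Adgre1 among them (4.71 to 5.01 against 4.30 to 4.75), overlapped it; the part of these cells in the interferon values was not tested.

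**Figure D4:**
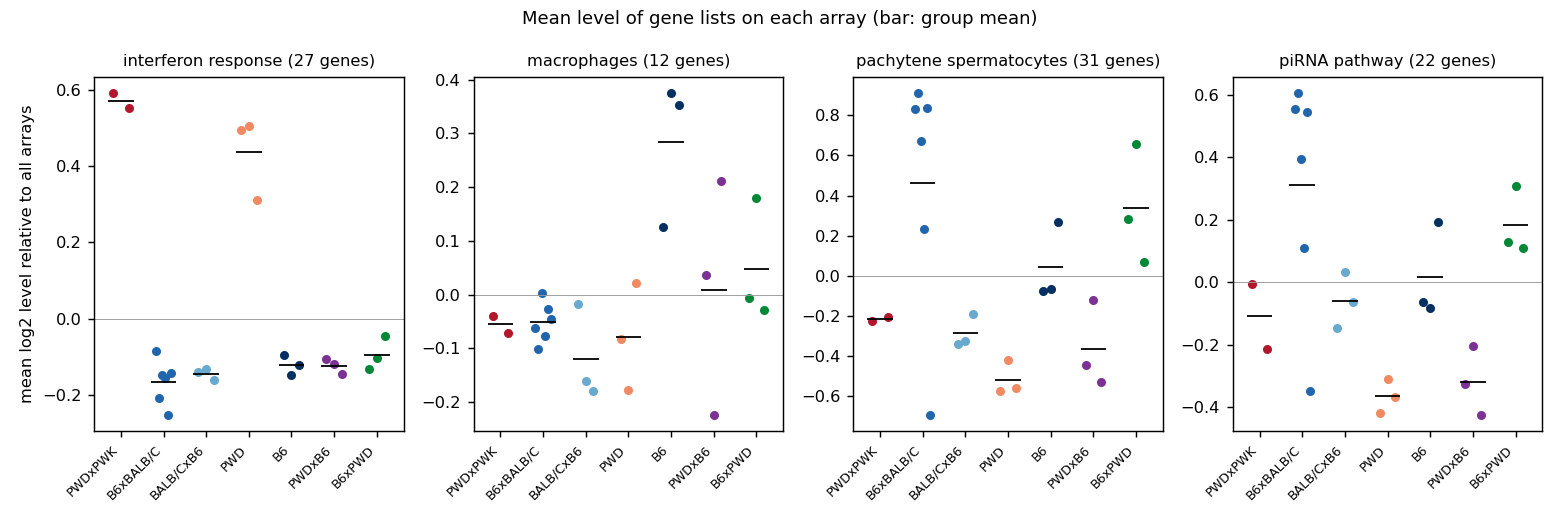
Mean log2 level of the tested members of 4 gene lists on each of the 23 arrays, relative to the mean of each gene over all arrays; points are arrays and bars are group means. The interferon panel separates PWDxPWK (0.55 and 0.59) and PWD from all other genotypes, the macrophage panel does not, and the pachytene and piRNA panels show the spread of the 6 B6xBALB/C arrays.

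Genes of antigen presentation moved in part together. Peptides for MHC class I are cut by the immunoproteasome, carried into the endoplasmic reticulum by the Tap transporter and loaded onto class I chains with beta-2-microglobulin. Of 18 members tested, 7 rose and 2 fell, against 5.83% and 5.15% of all genes, and the list's median was 0.16. The immunoproteasome subunit Psmb8 lay at 6.82 and 6.39, against 5.33, 5.46 and 5.54 in B6xBALB/C and 5.25, 5.16 and 5.46 in BALB/CxB6 (1.24 ± 0.14, adjusted p = 1.04e-06), and Psmb9 rose by 0.73 ± 0.12 (adjusted p = 0.000221). The transporter gene Tap1 lay at 8.24 and 8.27, against 7.16, 7.27 and 7.47 and, in BALB/CxB6, 7.30, 7.15 and 7.29 (0.99 ± 0.09, adjusted p = 4.61e-08), and Tap2 rose by 0.92 ± 0.11 (adjusted p = 6.1e-06). These 4 genes are neighbours on chromosome 17 in the gene table and formed 1 of 2 runs of at least 4 adjacent called genes.

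The common light chain B2m lay at 10.02 ± 0.12 in PWDxPWK (SD, n = 2), against 8.95, 9.32 and 9.51 in B6xBALB/C and 9.54, 9.22 and 9.42 in BALB/CxB6 (0.69 ± 0.13, adjusted p = 0.00103), while its inbred difference was 0.08 (adjusted p = 0.715). H2-Q10, a secreted class I molecule, was 2.02-fold lower (-1.02 ± 0.15, adjusted p = 4.31e-05), and H2-T24 was 0.51 ± 0.13 higher (adjusted p = 0.0109). Without PWDxPWK replicate 1 the calls of H2-T24 and H2-Ab1 were lost. Class II genes did not move as one: H2-Ab1 rose, the invariant chain Cd74 fell, and H2-Eb1 (0.20, adjusted p = 0.252) did not pass. The alleles of MHC genes differ greatly between strains, and class I copies share sequence, so values of single H2 genes are uncertain. Of the 9 Trim5-cluster and other restriction factors tested, Trim12a and Fv1 fell and Trim21 rose (33.3% called, beside 11.0% of all genes). Both dim members lay above the domesticus F1 range, Trim30a at 5.76 to 5.88 against 4.47 to 4.87 and Trim30d at 4.53 to 4.79 against 2.63 to 3.47. Fv1, a restriction factor derived from a retroviral gag gene, was 1.85-fold lower (-0.89 ± 0.18, adjusted p = 0.00218; 0.106 without PWDxPWK replicate 1), and Trim21, a cytosolic antibody receptor, was 0.80 ± 0.11 higher (adjusted p = 3.53e-05).

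On the X, 47 of 474 genes tested were called (9.92%), 22 higher and 25 lower, beside 11.0% of autosomal genes. The reciprocal hybrids give a related X contrast on arrays that this comparison does not use, since PWDxB6 males carry the X of PWD and B6xPWD males that of B6. It is not the same contrast, because the F1 reference averages the X of B6 and of BALB/C and the hybrids are inter-subspecific. Of the 47 calls, 43 had the same sign in PWDxB6 minus B6xPWD (91.5%), and 22 were called there in the same direction and 0 in the opposite one, where 2.83% of all genes were called, 1.33% higher and 1.51% lower. These hybrids differ in their sex chromosomes and not in their autosomal alleles. The share of all X-linked genes called between them is the nearer base and is not given here. Autosomal calls had the same sign there in 64.7%, and 50 of 1570 were called. Without 1 of the PWDxPWK arrays the number of X calls was 24 or 20.

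Zcchc12, a zinc-finger coactivator, lay at 6.83 and 7.19 in PWDxPWK, against 5.54, 5.70 and 6.12 in B6xBALB/C and 5.85, 5.81 and 5.89 in BALB/CxB6 (1.2 ± 0.13, adjusted p = 1.4e-06). PWDxB6 exceeded B6xPWD by 1.11. Firre, a long noncoding RNA, lay at 7.05 and 7.04, against 8.61, 8.71 and 9.05 and, in BALB/CxB6, 8.95, 8.75 and 8.50 (-1.69 ± 0.15, adjusted p = 3.2e-08), and the hybrid contrast was -1.40. In Firre, as in Zcchc12, no PWDxPWK array reached the domesticus range, which the choice of these genes required. Ct55, a cancer/testis antigen, was 2.13-fold lower (-1.09; hybrid contrast -0.79). Other X-linked rises were those of the ubiquitin ligase Rnf128 (0.84), 1700080O16Rik (1.08), Dmrtc1b (0.88) and the meiotic cyclin Ccnb3 (0.81), of which Rnf128 kept its call when either PWDxPWK array was left out, while 1700080O16Rik and Dmrtc1b lost it without replicate 2 and Ccnb3 without replicate 1. G530011O06Rik (-1.46) had no call in the inbred pair (-0.47, adjusted p = 0.289) and a hybrid contrast of 0.19, so it did not follow the pattern of the other X-linked genes named, and Gm648 (-1.07) had one of -2.20. Both lost their call with 1 PWDxPWK array left out, replicate 2 for the former and replicate 1 for the latter.

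The 8 Y-linked genes tested compare the Y of PWK with those of BALB/C and B6. All missed the threshold in limma (0 of 8, beside 11.0% of all genes called), and 8 genes are few for such a share. The subspecies origin of these Y chromosomes was not examined, so the contrast is read as between strains only. An unadjusted p under 0.05 in limma was found for 1 gene. That was Zfy2, a zinc-finger factor of the meiotic checkpoint, at 7.13 and 7.22 against 6.69, 6.76 and 6.91 in B6xBALB/C and 6.64, 7.10 and 6.50 in BALB/CxB6 (0.41 ± 0.19, adjusted p = 0.173). Its paralog Zfy1 gave 0.33 (adjusted p = 0.391), and near-identical sequence makes the split between them uncertain. The others, Eif2s3y (0.13), Sry (-0.20), Kdm5d (0.13), Uba1y (0.17), Usp9y (0.15) and Uty (-0.11), had both signs.

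Of the spermatogonial genes 8.70% were called, of the synapsis genes 10.5% and of the recombination genes 13.6%, beside 11.0% of all genes. Of 23 spermatogonial genes, Ret, the receptor of the stem cell factor Gdnf, rose (0.44 ± 0.10, adjusted p = 0.00371; 0.149 without PWDxPWK replicate 1) and Upp1 fell (-0.59 ± 0.14, adjusted p = 0.00552; lost when either PWDxPWK array was left out). Among 19 genes of synapsis and cohesin, Syce1, a central element protein of the synaptonemal complex, lay at 8.05 and 7.96, against 8.37, 9.0 and 9.23 in B6xBALB/C and 8.61, 8.80 and 8.65 in BALB/CxB6 (-0.81 ± 0.15, adjusted p = 0.00077). Both PWDxPWK arrays were below all others, and the inbred difference was -0.19 (adjusted p = 0.435). The meiotic cohesin Rec8 rose by 0.44 ± 0.14 (adjusted p = 0.0422), a call lost in 12 of 26 alternatives. Of 22 recombination genes, the mismatch-repair factor Mlh3 fell (-0.75 ± 0.16, adjusted p = 0.00285), and Mei1 (0.58 ± 0.14) and Msh5 (0.36 ± 0.11) rose. Mlh3 lay at 6.96 and 6.78 against 7.28 to 7.97 in B6xBALB/C, and lost its call without PWDxPWK replicate 2. Mei1 and Msh5 lost theirs when either PWDxPWK array was left out, in 3 and 7 of 26 alternatives in all. Without B6xBALB/C replicate 6, 2 recombination genes were higher and 3 lower, and against BALB/CxB6 alone 0 and 1.

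Prdm9, the histone methyltransferase that places meiotic recombination hotspots and the known hybrid sterility gene of these subspecies, lay at 8.23 and 8.55, against 7.91, 7.99 and 8.30 in B6xBALB/C and 8.11, 8.19 and 8.0 in BALB/CxB6. The groups overlapped, and the difference of 0.31 ± 0.15 did not pass (adjusted p = 0.23), while the inbred difference of 0.77 did (adjusted p = 0.00158). The difference between both contrasts was not called. Of 15 sex-body silencing factors, Rad1, a clamp protein of the ATR pathway, fell (-0.65 ± 0.16, adjusted p = 0.00898), and lost its call when either PWDxPWK array was left out. The list had 0 rises in limma and 2 at an unadjusted p under 0.05, and 6.67% of it was called, beside 11.0% of all genes.

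Of the pachytene genes 6.45% were called, of the piRNA pathway genes 4.55% and of the spermatid genes 15.4%, beside 11.0% of all genes. The 31 pachytene genes had a median of -0.32, with 1 higher (Ccnb3) and 1 lower (Cetn1). The 22 piRNA pathway genes had a median of -0.28, and 1 fell, Mov10l1, the helicase that starts piRNA processing (-0.42 ± 0.12, adjusted p = 0.0208), and 0 rose at either threshold in limma. Cetn1 and Mov10l1 each lost the call in 4 alternatives, among them those without PWDxPWK replicate 1 and without replicate 2. These lists depended on the domesticus arrays used. Without B6xBALB/C replicate 6, 12 pachytene genes and 9 piRNA genes were lower, and with replicates 1 to 3 alone 14 and 11. With replicates 4 to 6 alone 1 of each list was lower, and against BALB/CxB6 alone 0 of each, where the pachytene median was 0.09 and 2 genes were higher. The direction of the pachytene median thus differed between the crosses used as reference. Of 13 spermatid genes, the tail protein gene Odf1 rose (0.63 ± 0.12, adjusted p = 0.00077; lost without PWDxPWK replicate 1) and Pla2g6 fell (-0.30, adjusted p = 0.0401; lost in 12 of 26 alternatives). Without B6xBALB/C replicate 6, 1 spermatid gene was higher and 3 lower. Among the 20 spermatid genes on the array 7 had been left out as dim. With the lower 50% of genes removed 3 were left, 0 higher and 1 lower, so Odf1 lies among the dimmer genes.

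Of the X-linked germ cell genes 14.3% were called and of the imprinted genes 10.7%, beside 11.0% of all genes. Among 21 X-linked germ cell genes 2 rose, Nxt2 (0.48) and Tsx (0.53), and 1 fell, Magea6 (-0.92), whose family copies the array may not separate. The calls of all 3 were lost when either PWDxPWK array was left out. Of 28 imprinted genes 3 rose and 0 fell, and at an unadjusted p under 0.05 in limma 5 were higher and 0 lower. Nnat, a paternally expressed gene, lay at 7.45 and 7.44 in PWDxPWK, against 5.86, 5.95 and 6.38 in B6xBALB/C and 6.19, 6.37 and 6.21 in BALB/CxB6 (1.29 ± 0.12, adjusted p = 9.38e-08). In the hybrids it lay at 6.27 to 6.59 in PWDxB6, with a B6 father, and at 7.28 to 7.43 in B6xPWD, with a PWD father. Igf2r, the maternally expressed clearance receptor of Igf2, rose by 0.51 ± 0.10 (adjusted p = 0.00218), and Impact by 0.39 ± 0.11 (adjusted p = 0.0185). Igf2r lost its call without PWDxPWK replicate 2, and Impact when either PWDxPWK array was left out.

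Over all genes 5.83% were higher and 5.15% lower, the shares beside which the somatic lists stand. Of 29 Sertoli cell genes, 2 rose, Tsx and the steroid dehydrogenase Hsd17b1 (0.58 ± 0.12, adjusted p = 0.00289; 0.196 without PWDxPWK replicate 2). Hsd17b3, the Leydig enzyme that makes testosterone in the adult, was the 1 of 8 Leydig genes that fell (-0.72 ± 0.23, adjusted p = 0.0431), a call lost in 11 of 26 alternatives. Of 20 peritubular and stromal genes 1 fell: Actg2, a smooth muscle actin, lay at 6.22 and 6.08, against 6.92, 7.05 and 7.40 in B6xBALB/C and 7.04, 7.21 and 7.07 in BALB/CxB6 (-0.97 ± 0.13, adjusted p = 1.57e-05). At an unadjusted p under 0.05, 7 of these 20 were lower and 1 higher, and their median was -0.14. None of 15 endothelial genes passed in limma (0, with 3 at an unadjusted p under 0.05, 2 higher and 1 lower), nor any of 3 red blood cell genes (0 at either threshold).

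The counts of stress and apoptosis genes likewise stand beside 5.83% higher and 5.15% lower over all genes. Of 21 genes of dissociation stress 4 fell, Btg2 (-0.90), Atf3 (-0.79), Myc (-0.45) and Klf6 (-0.37), lost in 12, 6, 4 and 15 alternatives, all 4 without PWDxPWK replicate 1. Atf3 lay at 8.21 and 7.98, against 8.87, 9.58 and 9.86 in B6xBALB/C but 8.86, 8.44 and 7.76 in BALB/CxB6, so it overlapped the latter. Against BALB/CxB6 alone 0 of these genes were called, and against B6xBALB/C alone 8. Of 21 genes of DNA damage and apoptosis 3 fell, Trp53inp1 (-0.51), Casp8 (-0.43) and Bcl2l1 (-0.34), each lost when either PWDxPWK array was left out.

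Retinoic acid, which starts meiosis, is made from retinol by retinaldehyde dehydrogenases and broken down by Cyp26 enzymes. Aldh1a2, the dehydrogenase of germ cells, lay at 8.91 and 8.50 in PWDxPWK, against 10.06, 10.08 and 10.22 in B6xBALB/C and 9.98, 10.09 and 10.13 in BALB/CxB6. It fell 2.6-fold without overlap (-1.38 ± 0.12, adjusted p = 3.85e-08), and by 1.03 in the inbred pair (log2). Aldh1a1, the enzyme of Sertoli cells, fell by 0.57 ± 0.10 (adjusted p = 0.000489). Cyp26a1 was also lower (-0.76 ± 0.19, adjusted p = 0.00881; 0.198 without PWDxPWK replicate 2), and Retsat, a retinol saturase, higher (1.54 ± 0.16, adjusted p = 6.29e-07); both were singled out after their values were seen.

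Other metabolic families moved both ways, and their counts stand against 5.83% higher and 5.15% lower over all genes. Of 43 glutathione and detoxification enzymes 4 rose and 5 fell, among them the glutathione transferase Gstm2 (-1.16 ± 0.13, adjusted p = 1.54e-06). Of 28 cytochrome P450 genes 2 rose and 4 fell, led by Cyp2d22 (1.0) and the sterol hydroxylase Cyp27a1 (-0.94). Of 295 solute carriers 30 rose and 16 fell, 15.6% in all against 11.0% of all genes, and the median was 0.04. The zinc transporter Slc39a8 lay at 7.13 and 6.67, against 5.38, 5.65 and 5.80 in B6xBALB/C and 5.36, 5.52 and 5.37 in BALB/CxB6 (1.38 ± 0.15, adjusted p = 1.28e-06), while Slc16a4, a paralog of Slc16a3, was 3.12-fold lower (-1.64 ± 0.17, adjusted p = 3.22e-07). Of 56 respiratory chain genes 3 fell, the complex I subunits Ndufs5 (-0.78), Ndufv3 (-0.69) and Ndufa5 (-0.54), and 0 rose, while 3 were higher and 8 lower at an unadjusted p under 0.05 in limma. The 5.36% of this list that fell is near the share of all genes. BALB/CxB6 replicate 3 stood apart from its group in the mean level of the list (0.53 against -0.05 and 0.04), and against B6xBALB/C alone 2 members were higher and 1 lower. Ndufa5 lost its call in 12 of 26 alternatives, Ndufv3 without PWDxPWK replicate 2 and Ndufs5 without replicate 1.

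Over all genes 11.0% were called, 5.83% higher and 5.15% lower, beside which the next lists stand. Of 28 ribosomal protein genes (7.14% called), Rps3a1 rose (1.3 ± 0.19, adjusted p = 3.81e-05) and Rps19 fell. Of 10 serpins, Serpini1, the neuroserpin gene, rose (1.2 ± 0.11, adjusted p = 6.57e-08), and Serpina5, the protein C inhibitor gene, fell 3.4-fold (-1.77 ± 0.16, adjusted p = 5.43e-08) together with Serpina3a. Of 303 zinc-finger genes named Zfp, 7 rose and 15 fell (7.26%), led by Zfp872 (-1.35), Zfp239 (-1.22) and Zfp809 (-0.71), a repressor of retroviral elements. Of 12 beta-defensins Defb15 rose (1.12 ± 0.25, adjusted p = 0.00481; 0.109 without PWDxPWK replicate 2). Among 8 genes often used as controls, Actb did not pass (0.04, adjusted p = 0.823), but Hprt fell (-0.68 ± 0.13, adjusted p = 0.00128; lost without PWDxPWK replicate 2) and B2m rose. Of 698 genes with provisional names 32 rose and 35 fell (9.60% in all). Gm14403 lay at 6.61 and 7.03, against 4.65, 4.99 and 5.55 and, in BALB/CxB6, 5.05, 4.62 and 5.19 (1.84 ± 0.22), and 2610524H06Rik at 6.16 and 6.13, against 8.47, 8.64 and 8.99 and, in BALB/CxB6, 8.93, 8.76 and 9.03 (-2.65 ± 0.17). Both were without overlap, which the choice of these genes required. The other provisional names with large differences were 1810037I17Rik (1.19; lost without PWDxPWK replicate 1), Gm9222 (0.99) and Gm12250 (0.95), and, lower, 1700006J14Rik (-2.45; lost against BALB/CxB6 alone), 4930486L24Rik (-1.61) and Gm1976 (-1.41).

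The F1 difference itself differed from the inbred difference for 9 genes (0.061%), above it for 2 (0.0136%) and below it for 7 (0.0475%), with 845 at an unadjusted p under 0.05. The F1 side adds PWK and BALB/C alleles and is non-inbred, so strain alleles and inbreeding cannot be told apart. Serpina3a was the clearest: it lay at 6.42 and 6.61 in PWDxPWK, at 8.08, 8.38 and 8.78 in B6xBALB/C and at 8.52, 8.42 and 8.63 in BALB/CxB6, but at 7.0, 6.84 and 6.52 in PWD and 6.11, 5.74 and 6.05 in B6. The domesticus F1s were thus above inbred B6, which was lowest, and the difference turned from 0.82 in the inbreds to -1.95 in the F1s (F1 minus inbred -2.77 ± 0.27, adjusted p = 1.04e-05). Cd74 did likewise, at 6.10 and 6.19 in PWDxPWK, 6.55, 7.08 and 7.42 in B6xBALB/C and 7.42, 7.13 and 7.36 in BALB/CxB6, against 6.25, 6.44 and 6.28 in PWD and 5.11, 5.35 and 5.59 in B6 (-1.98 ± 0.26, adjusted p = 0.000325). Plbd1, a lysosomal phospholipase-like protein, lay at 5.23 and 5.18 in PWDxPWK, against 7.46 to 8.16 in B6xBALB/C and 5.78 to 6.03 in B6 (-1.77 ± 0.22, adjusted p = 0.000225).

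Vnn1, the pantetheinase, was higher in musculus in both contrasts, but by 1.34 in the F1s and 2.93 in the inbreds (-1.58 ± 0.20, adjusted p = 0.000225). Tap1 (-0.86 ± 0.13, adjusted p = 0.00209) and Tap2 (-0.98 ± 0.17, adjusted p = 0.0119) likewise kept their direction with a smaller F1 difference, and inbred B6 lay at 6.48 to 6.55 and 6.38 to 6.70, below the domesticus F1s. In Smyd1, a muscle methyltransferase, the F1 fall was smaller than the inbred one (-0.35 against -1.16), and its call was lost in 15 of 31 alternatives. Fam181b turned from 0.51 to -0.38. The call of the difference was lost in 2 of 32 alternatives for Fam181b and in 3 of 32 for Tap2, while that of Tap1 held in all. Oasl2, an interferon-induced OAS-like gene, lay at 8.51 and 8.48 in PWDxPWK and 8.27, 8.48 and 8.10 in PWD, but at 7.33 to 7.54 in B6xBALB/C and 7.96 to 8.10 in B6 (0.74 ± 0.14, adjusted p = 0.0262), a call lost in 9 of 32 alternatives. None of the 9 was called between PWDxPWK and PWD, and the B6 arrays lay outside the range of the domesticus F1 arrays in all of them except Smyd1, where both reached 6.11. Of the 1135 genes called in both contrasts, 5 had opposite signs: Cd74, Serpina3a, Fam181b, 1810034E14Rik and Plekhh2. The F1 calls of the last 3 were lost without PWDxPWK replicate 2, among 3 to 10 alternatives each.

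**Figure D5:**
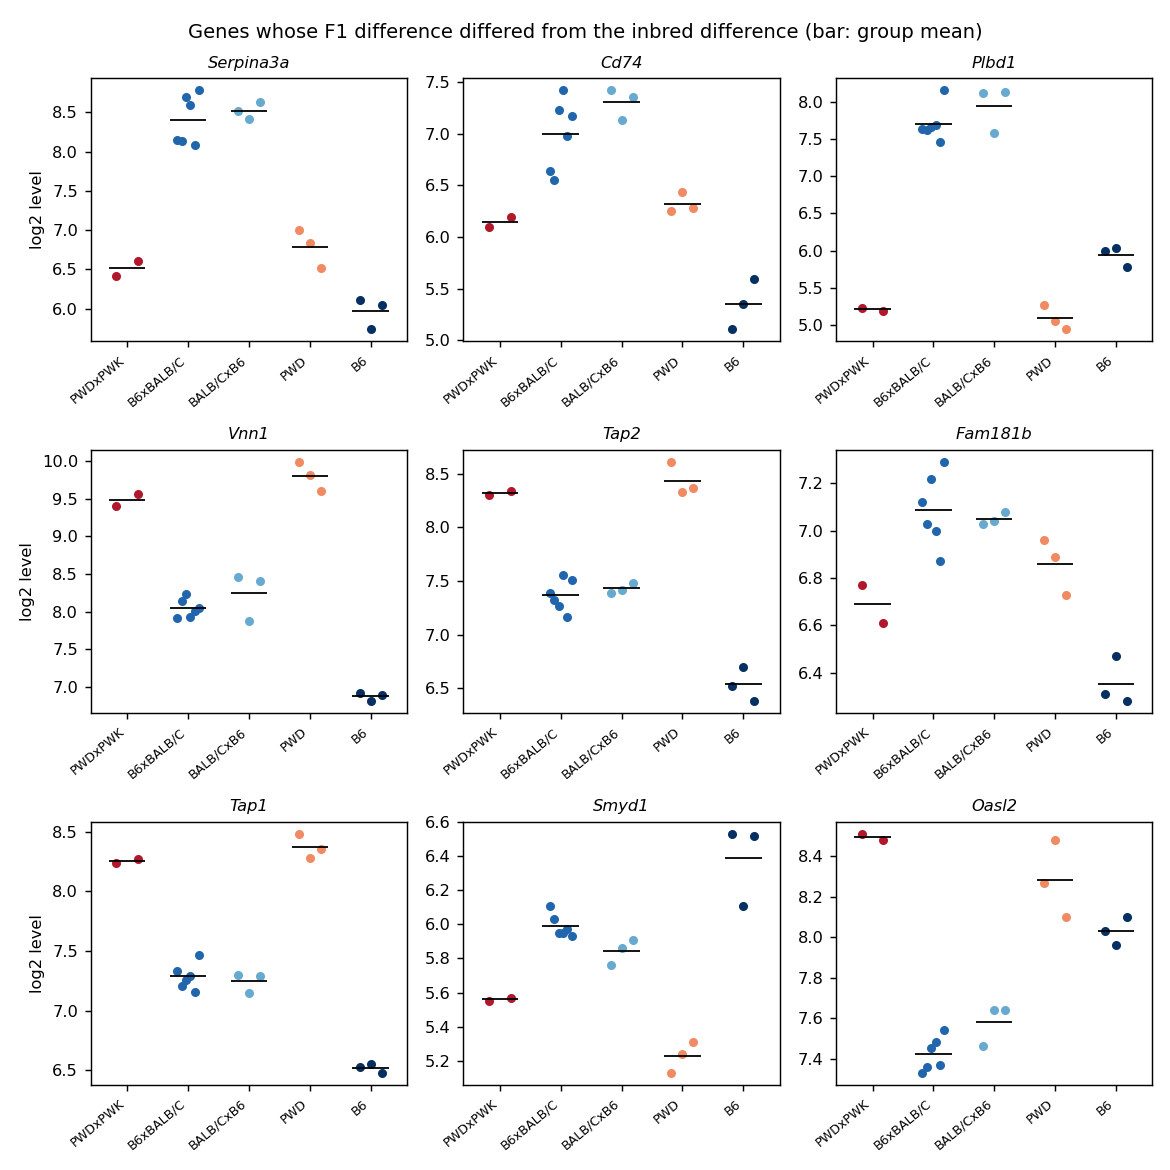
Log2 level on each array for the 9 genes whose F1 difference differed from the inbred difference; points are arrays, bars are group means and each panel has its own vertical scale. Inbred B6 lies apart from both domesticus F1 groups in every panel but that of Smyd1, for Serpina3a at 5.74 to 6.11 against 8.08 to 8.78.

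Calls were spread over the autosomes, from 7.5% of the genes tested on chromosome 14 to 14% on chromosome 13. Of the 1617 called genes placed on a chromosome, 385 (23.8%) had a called neighbour, beside 20.1% of the genes not called. The longer of the 2 runs of adjacent calls was on chromosome 10: Apba3 (0.27), Tjp3 (0.30), Pip5k1c (0.42), Cactin (0.32), Tbxa2r (0.96) and Gipc3 (0.51), all higher in PWDxPWK. Tbxa2r, the thromboxane receptor gene, lay at 7.29 and 7.13, against 6.00, 6.25 and 6.51 in B6xBALB/C and 6.36, 6.25 and 6.18 in BALB/CxB6, and was the member of the run whose call held in every alternative. The call of Apba3 was lost in 20 of 26.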

How the data were processed

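Values are log2 levels as deposited by the authors in the value table of the series, for 25690 probe sets and 23 arrays. The log base was read from their range (1.17 to 13.96); for background correction, normalization and centring no method is given in the sources used here, and the labels name more than 1 labelling kit. The 20777 probe sets with 1 symbol gave 19661 genes, using the brightest of several; 232 had several symbols and 4681 none. Chromosomes came from the RefSeq table of GRCm38.p6, matched through Entrez IDs (20696 probe sets). Dropping the dimmest 25% of genes left 14745.

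Means of the 7 genotypes were fitted over all 23 arrays with limma 3.58.1 (R 4.3.3), with Benjamini-Hochberg adjustment at 0.05; the fit was tested on simulated data. The text names the 12 largest calls each way with both PWDxPWK arrays outside the domesticus F1 range (no provisional names), the 5 largest each way among X-linked genes, provisional names and F1 minus inbred differences, up to 4 members of each of 32 lists by p, Y-linked genes and Prdm9; 1 X-linked gene of this choice is not reported here, and some list members are given as counts. Further interferon, MHC and restriction factor members, Fam181b, the neighbour runs, Retsat and Cyp26a1 were chosen after their values were seen. The comparison and lists were chosen with earlier results of these data known. Alternatives changed the dim filter, normalization, centring, probe set choice, variance model, array weights, replicate block, reference arrays and each array left out. Plots used matplotlib 3.10.9 (Python 3.11.15).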

Additional observations from a re-analysis of the deposited data

Results flagged for a closer look

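The F1 and inbred differences differed by a test of the difference itself for 9 genes. The F1 minus inbred values were -2.77 for Serpina3a, -1.98 for Cd74, -1.77 for Plbd1, -1.58 for Vnn1, -0.98 for Tap2, -0.89 for Fam181b, -0.86 for Tap1, 0.81 for Smyd1 and 0.74 for Oasl2.

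Among the 6 B6xBALB/C arrays, 1 array lay far from the other 5 for 12 of 212 named genes, by the gap of an extreme array divided by the range (above 0.625); chance gives about 1 in 20. Replicate 6 was the highest for Plbd1 (8.16), Tgfbi (8.46), Firre (9.05), Ret (8.10) and Gipc3 (8.10), and the lowest for Mybl1 (8.44) and Magea6 (4.78). Replicate 3 was the highest for Ct55 (7.81) and Mrc1 (7.73). Replicate 5 was the lowest for S100b (5.04), replicate 4 for G530011O06Rik (6.60) and replicate 1 for Uty (7.49).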

How the results depend on the processing

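The 1620 calls between PWDxPWK and the domesticus F1s ranged from 1152 to 2151 over the alternatives that kept both PWDxPWK arrays, and from 775 to 2003 when each array was left out in turn (339 to 989 higher, 325 to 1014 lower). Higher calls numbered 561 against BALB/CxB6 alone and lower calls 1149 with B6xBALB/C replicates 1 to 3 alone. The inbred count was 1802 to 2341 with an array left out (951 to 1289 higher, 758 to 1052 lower). The F1 calls shared with the inbreds were 611 to 1383, the X-linked calls 20 to 57 and the interferon genes that rose 14 to 18 in the same leave-one-out fits; 9 interferon genes rose with the lower 50% of genes removed, which left 13 to test. The replicate block was fitted without B6xBALB/C replicates 4 to 6, so its counts also reflect the arrays left out. The 9 genes whose F1 and inbred differences differed became 21 with B6xBALB/C replicates 1 to 3 alone, 22 with the replicate block and 5 to 17 with an array left out. B6xBALB/C against BALB/CxB6, 65 calls, gave 21 with the lower 50% of genes removed, 30 with quantile normalization, 30 with robust variances, 1618 with array weights, 1311 with the replicate block, 1275 with replicates 1 to 3 alone, 0 with replicates 4 to 6 alone and 1 to 1011 with an array left out. PWDxPWK against PWD, 1 call, gave 2 without the dim filter, 2 with array weights, 4 with the replicate block and 0 to 1 with an array left out, where 334 to 832 genes had an unadjusted p under 0.05 in limma. The replicate block gave 2026 calls for the F1 comparison. Deviations of same-numbered arrays from their group means correlated at -0.16 to 0.14, computed for replicates 1 and 2 of the F1 groups. The 2 PWDxPWK arrays deviate as mirror images, and few arrays were compared. Whether the numbers pair the samples therefore cannot be told from these values. Centring on the autosomal median split the calls 727 higher and 868 lower. Of 136 named calls 76 held in every alternative, 60 were lost in at least 1 and 0 changed sign. Where a value moved with a setting other than the number of genes or arrays, the cause was not tested. The alternatives for the within-subspecies, interferon, X-linked and shared counts, and the reference arrays for the F1 minus inbred difference, were added after seeing the data. With 2 PWDxPWK arrays the precision is limited by their number, and no background signal was used.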
